A study of Mus musculus with 6 samples.

Results

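The genes described here encode the cytosolic ribosomal proteins. Members were all mouse genes whose symbol begins with Rps or Rpl and a digit, without symbols that contain -ps and without the Rps6k kinases. The rule found 82 genes of 25696 in any deposited table, of which 33 are Rps symbols (small subunit) and 49 are Rpl symbols (large subunit). It found 77 in the table of SCRB-seq wells, 79 in the SMART-Seq2 tables and 80 in the droplet table, and 77 in every table. Rpl35, Rpl7l1 and Rps27rt were in the droplet table alone, and Rpl10l and Rpl39l were in the SMART-Seq2 tables alone. By symbol the rule also takes Rps19bp1, a regulator that binds Rps19 and is no part of the ribosome, and Rpl6l, which the GENCODE annotation lists as a processed pseudogene.

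Ribosomal proteins and ribosomal RNA build the small subunit, which reads the mRNA, and the large subunit, which joins amino acids. The genes are expressed in nearly every cell, and their mRNAs are short, abundant and mostly cytoplasmic, so that a nucleus holds them as new transcripts and as RNA carried over from the cytoplasm. Many of these mRNAs begin with a cytosine and a run of pyrimidines, the 5′ TOP sequence through which mTOR and Larp1 control their translation, and most of the genes have retrocopies elsewhere in the genome.

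All material came from the brain of C57BL/6J mice of 8 to 12 weeks, called cortex by the labels, and no label names an animal, sex or pool of animals. Formalin-fixed, paraffin-embedded (FFPE) scrolls of 50 µm were freed of paraffin in 1 of 3 ways. These were heated mineral oil, heated xylene, or xylene without heating, called room-temperature xylene here. Frozen tissue was the fourth group. SCRB-seq, which counts 3′ ends, had 16 wells per group, 8 of 10 sorted nuclei and 8 of 100. The 8 wells of 1 group and nuclei number shared 1 library pool, so pool and group cannot be told apart. SMART-Seq2, which reads whole transcripts, had 3 wells per group, of 100, 50 and 10 nuclei. Single nuclei were sequenced by SMART-Seq2 on plates, with 98 FFPE nuclei in batch 1, 134 in batch 2, and a table that sets 143 FFPE nuclei beside 137 frozen nuclei. In that table the FFPE nuclei carry the brain label L and the frozen nuclei the label R, on separate plates, so preservation, that label and plate cannot be told apart. Droplet sequencing (10x Genomics) covered 7031 FFPE nuclei in 1 library, with 12 classes named by the authors. P-values over wells measure only the spread between wells, which may be technical.

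Depth ran from 7512 to 167144 mouse counts per SCRB-seq well and from 270363 to 942966 per SMART-Seq2 well. The median was 180584 counts per batch 1 nucleus, 42747 per batch 2 nucleus and 255329 per frozen nucleus, and 325 UMIs per droplet nucleus. The markers of cerebellar granule neurons (Gabra6, Cbln3 and Cbln1) did not match a cortex label in the FFPE material. Their summed share was 0.0193% to 0.512% of counts in the FFPE wells of SCRB-seq and at most 0.00169% in the frozen wells, and all 3 of the 3 genes were at 0 in the frozen SMART-Seq2 wells against 0.0344% to 0.194% in the FFPE wells. In droplets the same 3 genes summed to 0.0359% to 0.0798% in every class. Excitatory neuron markers (among them Slc17a7, Slc17a6 and Camk2a) went the other way, with 0.126% in frozen SCRB-seq wells against 0.0243% to 0.0356% in the FFPE groups.

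The coding sequence below was chosen because a result turns on it, and no comparison of levels uses the start windows that follow. Rps27 encodes a zinc-finger protein of the small subunit. Its single-exon copy Rps27rt has the same coding sequence, with 0 of 252 bases differing (GENCODE M21, GRCm38), so a read within it fits both genes. Rps27 lies at chr3:90212522-90213651 on the minus strand in 3 exon blocks, and Rps27rt at chr9:114982366-114982739 on the minus strand in 1 block.
Rps27 and Rps27rt: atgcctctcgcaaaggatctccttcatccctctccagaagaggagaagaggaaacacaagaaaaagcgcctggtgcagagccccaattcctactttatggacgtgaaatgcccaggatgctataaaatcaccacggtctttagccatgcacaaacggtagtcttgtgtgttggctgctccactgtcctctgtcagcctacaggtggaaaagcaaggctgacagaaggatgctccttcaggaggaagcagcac

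The next windows run from 15 bases before to 15 bases after the annotated start of transcription (RefSeq, GRCm38.p6, 5′ to 3′ on the strand of the gene). They show that a short pyrimidine motif lies at different places near the start of 5 members and is not in the window of Rpl41. Capitals mark CTTTC, the motif searched, on the strand of the gene only.
Rpl38, chr11:114668565-114668594, plus: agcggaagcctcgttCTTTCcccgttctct
Rps27rt, chr9:114982725-114982754, minus: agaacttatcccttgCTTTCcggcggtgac
Rpl28, chr7:4792950-4792979, plus: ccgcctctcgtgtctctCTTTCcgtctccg
Rps27, chr3:90213634-90213663, minus: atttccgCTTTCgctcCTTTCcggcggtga
Rps26, chr10:128626492-128626521, minus: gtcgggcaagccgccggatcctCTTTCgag
Rpl41, chr10:128549154-128549183, minus: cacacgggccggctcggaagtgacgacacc
The motif was in 16 of the 74 promoters of the 62 members matched by symbol (21.6%), and in 1330 of all 32851 promoters (4.05%). Rpl38 and Rps27rt begin with it at the annotated start, Rps26 and Rpl28 hold it downstream, Rps27 holds it 2 times, upstream and just downstream, and the window of Rpl41 does not hold these letters.

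Members are short. The representative transcript had a median of 767.5 bases, and Rps27 with 345 bases was the shortest. Of the 82 members, 78 shared at least one run of 50 bases with another annotated gene, and 44 shared such runs over at least 50% of their sequence. Rps27 shared 98.6% of its 50-base words, Rpl9 93.3% and Rpl10a 88.1%, whereas Rps3 shared 2.96%. The sources used here do not say how the authors counted reads that match several places, so levels of Rps27, Rpl9, Rpl10a and other members with copies are uncertain. Symbols with -ps, which the rule leaves out, held 0.00917 to 0.0581 counts for each count on a member across the tables.

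In the SCRB-seq wells, members took a larger share of counts in FFPE than in frozen nuclei, with overlapping wells. The summed share of mouse counts was 0.407% ± 0.101 (SD, n = 16) in frozen wells and 0.518% ± 0.175 in mineral oil wells. The means were higher with heated xylene, 0.591% ± 0.114, and with room-temperature xylene, 0.685% ± 0.240. The lowest, median and highest frozen wells had 0.254%, 0.386% and 0.615%, and the room-temperature xylene wells 0.243%, 0.719% and 1.13%. The frozen wells lay inside the range of the room-temperature xylene wells, and the group with the highest mean also spread the most. In bulk wells, fewer cells of a type and less RNA per cell cannot be told apart. Malat1, a long noncoding RNA kept in the nucleus, took 9.19% of counts in frozen wells and 0.923% to 1.73% in the FFPE groups, and mitochondrial genes took 0.276% and 0.747% to 0.813%. Human genes, which are left out of these shares, took 2.08% of all counts in frozen wells. In mineral oil, heated xylene and room-temperature xylene wells they took 13.2%, 11.5% and 11.4%. The part of these differences in the share of members was not tested.

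Fewer members were seen in wells of 10 nuclei, which were other library pools and shallower. In mineral oil wells a median of 14.5 members had a count with 10 nuclei and 66 with 100 nuclei, at median depths of 14557.5 and 74274 counts, and in frozen wells 40 and 67. Nuclei number, depth and pool cannot be told apart. The summed share was 0.389% with 10 nuclei and 0.647% with 100 in mineral oil, and 0.543% and 0.827% in room-temperature xylene. Heated xylene went the other way, with 0.623% and 0.559%.

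**Figure D1:**
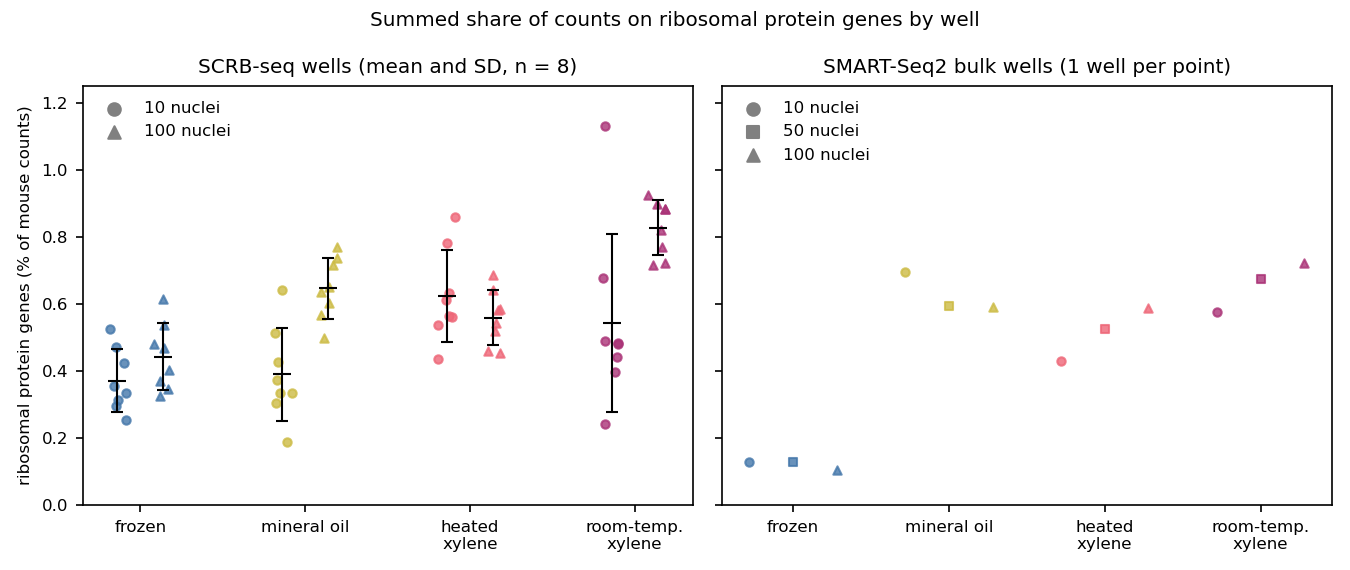
Each point is 1 bulk well, with the summed counts of ribosomal protein genes as a percent of mouse counts on the vertical axis and the 4 groups on the horizontal axis, and bars give the mean and SD of the 8 wells of a SCRB-seq pool. In SMART-Seq2 the 3 frozen wells (0.106% to 0.128%) lie below all 9 FFPE wells (0.429% to 0.723%), whereas in SCRB-seq frozen and FFPE wells overlap.

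Of the 77 members, 10 passed the filter on low counts in the fit of all SCRB-seq wells and 5 differed between FFPE and frozen wells at an adjusted p under 0.05, all 5 higher in FFPE (edgeR's quasi-likelihood test, Benjamini-Hochberg over 1478 genes). In the same fit 58.0% of all genes were called, 30.2% as higher in FFPE, so 5 of 10 is near the background. A gene can pass the filter through the group where it is high. Members that passed through their FFPE wells were bound to lie on that side, so the shared direction is not read as a result. The 4 small subunit genes among the 5 were Rps14, Rps26, Rps27 and Rps3, and the large subunit gene was Rpl41. Among the members tested and not called were Rpl3, Rpl8, Rpl19 and Rpl21, with log2 differences from -0.47 (Rpl3) to 0.67 (Rpl8).

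Rps14 is a protein of the small subunit platform, and its loss causes the anaemia of the 5q- syndrome. It had 92 counts in the 16 frozen wells, with a lowest, median and highest of 0, 72.7 and 270 CPM (counts scaled to 1000000 counts of the well). In the 48 FFPE wells these were 0, 240 and 1270 CPM. The FFPE wells were higher at the median and overlapped the frozen wells, and the log2 difference was 1.66 (SE 0.40, adjusted p = 0.000214, edgeR). Rps14 had a count in 43 of 48 FFPE wells, and the 5 wells without one were all mineral oil wells of 10 nuclei.

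Rps26 binds near the exit of the mRNA. Frozen wells ran from 0 over a median of 15 to 103 CPM, mineral oil wells from 0 over 76.4 to 728, heated xylene wells from 0 over 34.9 to 320, and room-temperature xylene wells from 22.7 over 149 to 352 CPM. All groups overlapped the frozen wells, and room-temperature xylene was the group in which every well had a count. The log2 difference between FFPE and frozen was 1.94 (SE 0.53, adjusted p = 0.00127, edgeR).

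Rps27 ran from 0 over 28.6 to 170 CPM in frozen wells and from 54.3 over 189 to 553 CPM in heated xylene wells. In mineral oil it ran from 0 over 83.1 to 293 CPM, and in room-temperature xylene from 0 over 68.2 to 289 CPM. Heated xylene wells were the highest group and their lowest wells still overlapped the frozen ones. The log2 difference between FFPE and frozen was 1.88 (SE 0.48, adjusted p = 0.000549, edgeR).

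Rpl41, the smallest ribosomal protein, and Rps3, which lines the mRNA entry and also acts in DNA repair, had smaller differences. Rpl41 had a median of 128 CPM in frozen and 238 in FFPE wells (log2 difference 0.94, SE 0.41, adjusted p = 0.0461, edgeR), and Rps3 56.2 and 136 CPM (log2 difference 0.92, SE 0.37, adjusted p = 0.0297, edgeR). Both calls were lost with DESeq2 size factors, which lowered the median of all 1478 genes by 0.58 on the log2 scale; under that scaling 3 members were called higher and 1, Rpl3, lower, and all called genes split into 309 higher and 674 lower in place of 447 and 410. When the wells of each library pool were summed to 1 sample, an alternative chosen after seeing the data, 0 of 76 members were called (7 at an unadjusted p under 0.05), where 0.752% of all genes were called, so the count says little about the members.

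Rpl8, a large subunit protein close to the peptidyl transferase centre, was the member that differed between the 3 ways of removing paraffin. All 8 mineral oil wells of 10 nuclei had 0 counts of Rpl8. In 10-nuclei wells its lowest, median and highest levels were 166, 378 and 581 CPM in heated xylene, 141, 279 and 1521 CPM in room-temperature xylene, and 0, 135 and 186 CPM in frozen wells. A count of 0 in the 115185 counts of the mineral oil pool allows up to 26.0 CPM (3 counts over the pool), so pooled Rpl8 was at least 12.9-fold lower there than in heated xylene (337 CPM). With 100 nuclei the wells overlapped, from 0 over 22.2 to 218 CPM in mineral oil and from 0 over 33.8 to 312 CPM in heated xylene, and room-temperature xylene ran from 65.9 over 245 to 344 CPM. Markers differed between the groups too. In mineral oil, heated and room-temperature xylene wells oligodendrocyte markers took 0.0581%, 0.228% and 0.199%, and inhibitory markers 0.00453%, 0.0446% and 0.0419%. Granule neuron markers went the other way, with 0.128%, 0.0854% and 0.0736%. Their part in the level of Rpl8 was not tested.

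Over both nuclei numbers, Rpl8 was lower in mineral oil than in heated xylene by a log2 difference of -2.57 (SE 0.62, adjusted p = 0.00352, edgeR). It was 1 of 7 members tested, all of the others being uncalled, where 8.52% of 1080 genes were called and 6.94% were called as lower in mineral oil. Against room-temperature xylene, Rpl8 was again the called member of the 7, where 10.3% of genes were called and 7.78% were called as lower in mineral oil. Between heated and room-temperature xylene 0 of the 7 members were called (3 at an unadjusted p under 0.05, 0 with DESeq2), where 1.94% of genes were called. Within wells of 100 nuclei alone neither Rpl8 difference was called, and the same held with library pools as samples, where 0 of 9161 genes were called. Over all alternatives the log2 difference ran from -7.01 to -0.56 against heated xylene. Against room-temperature xylene it ran from -7.60 to -1.97.

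**Figure D2:**
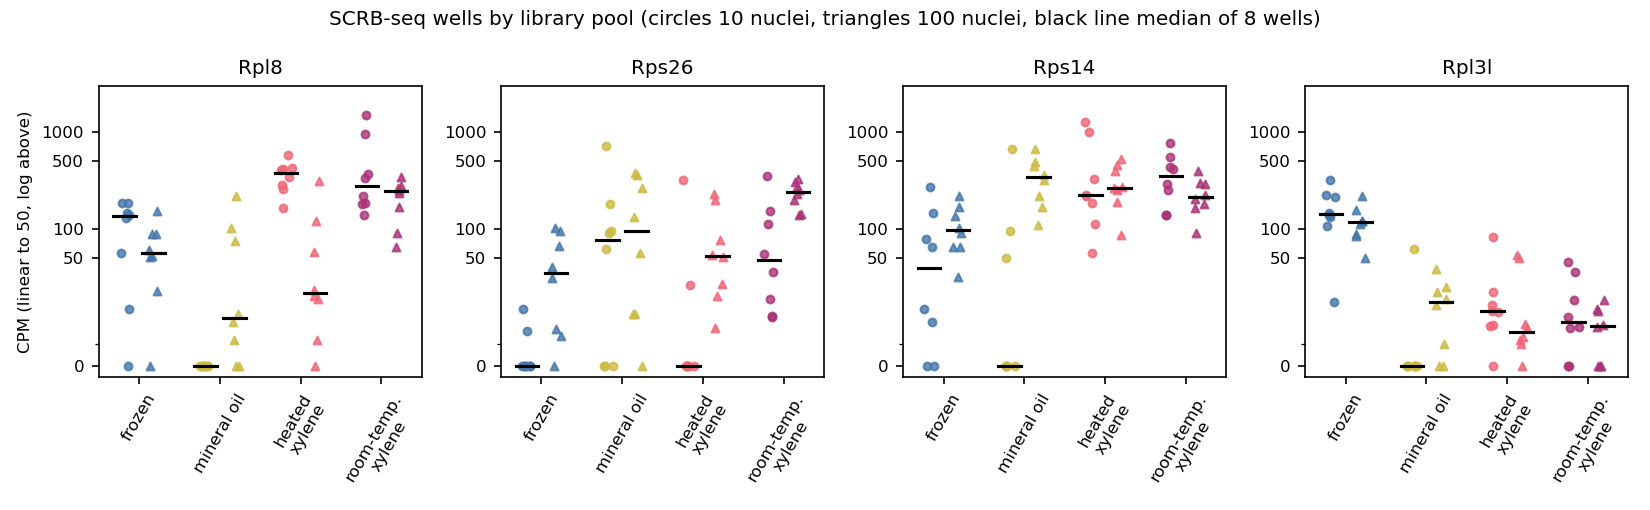
Each point is 1 SCRB-seq well, with CPM on an axis that is linear to 50 and logarithmic above, for Rpl8, Rps26, Rps14 and Rpl3l in the 8 library pools. Rpl8 is 0 in all 8 mineral oil wells of 10 nuclei, and Rpl3l is present in all 16 frozen wells.

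Presence or absence ran through whole pools for other members as well. Among the pools of 10 nuclei, 11 members had a count in all 8 wells of at least one pool and in 0 of 8 wells of another, among them Rpl4, Rpl8, Rpl27a, Rpl31, Rpl36, Rpl38, Rps4x, Rps7, Rps27l and Rps28. Over all 19006 genes 7.10% did so. Of the 31 members with a count in every well of some pool, the 11 are near the 35.3% found over the 3827 genes of that kind. Among the pools of 100 nuclei 0 members did so. The 8 wells of a pool were amplified and read together, and the part of that in the pattern was not tested.

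Rpl3l, a paralog that replaces Rpl3 in heart and skeletal muscle, was higher in frozen than in FFPE SCRB-seq wells. The lowest, median and highest frozen wells had 29.6, 127 and 319 CPM, and all 16 had a count. Mineral oil wells had 0, 0 and 62.4 CPM, heated xylene wells 0, 19.0 and 82.4, and room-temperature xylene wells 0, 18.5 and 48.1 CPM. The ranges overlapped at the lowest frozen wells. Rpl3l did not pass the filter on low counts. In the fit without that filter its log2 difference was -2.49 (SE 0.39, adjusted p = 1.42e-07, edgeR), and with library pools as samples -2.70 (SE 0.83, adjusted p = 0.14, edgeR). In the other assays Rpl3l was almost unseen, with 1 count over the 12 SMART-Seq2 wells (0 in the frozen ones), 6 counts over the 137 frozen nuclei and 1 droplet UMI. The frozen SCRB-seq wells therefore held 130 CPM of Rpl3l beside 154 CPM of Rpl3, a pair that stood at 0 and 60.8 CPM in the frozen SMART-Seq2 wells.

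In the SMART-Seq2 bulk wells, the share of members set FFPE and frozen wells apart. The 3 frozen wells had 0.106%, 0.127% and 0.128% of counts on members, and the mean was 0.120% ± 0.0126 (SD, n = 3). Mineral oil wells had 0.590%, 0.594% and 0.696%, heated xylene wells 0.429%, 0.525% and 0.588%, and room-temperature xylene wells 0.575%, 0.674% and 0.723%. All 9 FFPE wells (0.599% ± 0.0904, SD) were above all 3 frozen wells, and the 3 ways of removing paraffin overlapped. Mitochondrial genes were also lower in frozen wells, with a mean of 0.0343% against 0.500% to 0.760% in the FFPE groups, and Malat1 took 1.96% against 1.20% to 1.56%. Their part in the share of members was not tested.

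Gene by gene, 6 of the 73 members that passed the filter differed between FFPE and frozen wells, all 6 higher in FFPE (edgeR, Benjamini-Hochberg over 9092 genes). In that fit 4.09% of all genes were called and 1.45% were called as higher in FFPE. The DESeq2 Wald test called 25 members, all higher in FFPE, where it called 3.64% of all genes as higher. Of the 73, 69 had a positive log2 difference and the median was 2.22, against -0.13 over all genes tested; members that passed through their FFPE counts had to lie on that side. Without regard to the filter, 26 of the 79 members had every FFPE well above every frozen well and 0 had every FFPE well below, where 1.58% of all 21987 genes had the first pattern. In SCRB-seq 0 of 77 members did so, where 0.100% of 19006 genes did.

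Rpl7, a large subunit protein, had the lowest adjusted p. Its frozen wells of 100, 50 and 10 nuclei had 8.57, 29.6 and 11.2 CPM. In the same order the mineral oil wells had 183, 374 and 377, the heated xylene wells 228, 72.7 and 135, and the room-temperature xylene wells 241, 169 and 219 CPM. Every FFPE well was above every frozen well, and the log2 difference was 3.52 (SE 0.76, adjusted p = 0.00687, edgeR).

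Rps19, a protein of the small subunit head that is mutated in Diamond-Blackfan anaemia, had 6.43, 3.70 and 7.86 CPM in the frozen wells of 100, 50 and 10 nuclei. The FFPE wells ran from 54.4 to 169 CPM, with means of 144 ± 27.2 for room-temperature xylene, 91.1 ± 48.7 for mineral oil and 89.7 ± 20.3 for heated xylene (SD, n = 3 each). No FFPE well reached down to the frozen ones, and the log2 difference was 3.78 (adjusted p = 0.0276, edgeR). Rpl32 gave the same difference of 3.78 (adjusted p = 0.0410, edgeR), from 8.57, 3.70 and 4.49 CPM in the frozen wells to 40.6 to 153 CPM in the FFPE wells. Rpl21 rose by 2.89 (adjusted p = 0.0485, edgeR), from 8.57, 22.2 and 14.6 CPM to 44.9 to 221 CPM. Neither gene had an FFPE well within the frozen range.

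For Rps25, which some viral and cellular mRNAs need for internal initiation, and Rpl19, which bridges the subunits, 1 well broke the separation. Rps25 had 8.57, 3.70 and 4.49 CPM in the frozen wells and 42.4 to 289 CPM in 8 FFPE wells, and 4.06 CPM in the room-temperature xylene well of 10 nuclei. Rpl19 had 10.7, 14.8 and 15.7 CPM in the frozen wells and 84.8 to 556 CPM in 8 FFPE wells, and 14.2 CPM in that same well. Their log2 differences were 4.14 and 3.29 (adjusted p = 0.0369 and 0.0384, edgeR). The room-temperature xylene well of 10 nuclei was thus low for both genes while it had the highest level of Rpl21 of the 12 wells.

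The number of calls depended on single wells, while the differences stayed large. Leaving out any 1 well kept the median over the members tested between 2.13 and 2.43 on the log2 scale, that of Rpl7 between 3.32 and 4.19 over all alternatives, and that of Rps25 between 3.78 and 4.71. Without the frozen well of 100 nuclei or that of 10 nuclei, 0 members were called, and without the frozen well of 50 nuclei or the heated xylene well of 100 or 50 nuclei 1 was called. In these fits of 74 members 1.69%, 1.64%, 1.84%, 3.22% and 3.17% of all genes were called, so 0 or 1 is near the background. Leaving out the well of room-temperature xylene with 100 nuclei gave 2, and leaving out that of 50 nuclei or the mineral oil well of 100 or 50 nuclei gave 3, where 3.33% to 3.66% of all genes were called. Without the 10-nuclei well of mineral oil 10 were called, without that of room-temperature xylene 8, and without that of heated xylene 7. These are 13.5%, 11% and 9.46% of the members tested, where 4.29%, 4.58% and 4.07% of all genes were called. With nuclei number as a covariate 4 of the 6 were called, and Rpl32 and Rpl21 were not. The 4 are 5.48% of the 73 members, near the 4.72% of all genes called in that fit. Rpl10a and Rpl5 were among the members without a call and with the smallest differences. Rpl10a had 53.6, 66.6 and 51.6 CPM in the frozen wells and 6.09 to 87.5 CPM in the FFPE wells. Rpl5, which with Rpl11 binds Mdm2 when ribosome assembly fails, had 55.7, 85.1 and 62.8 CPM in the frozen wells and 0 to 200 CPM in the FFPE wells. For both genes the FFPE wells ran on either side of the frozen ones.

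**Figure D3:**
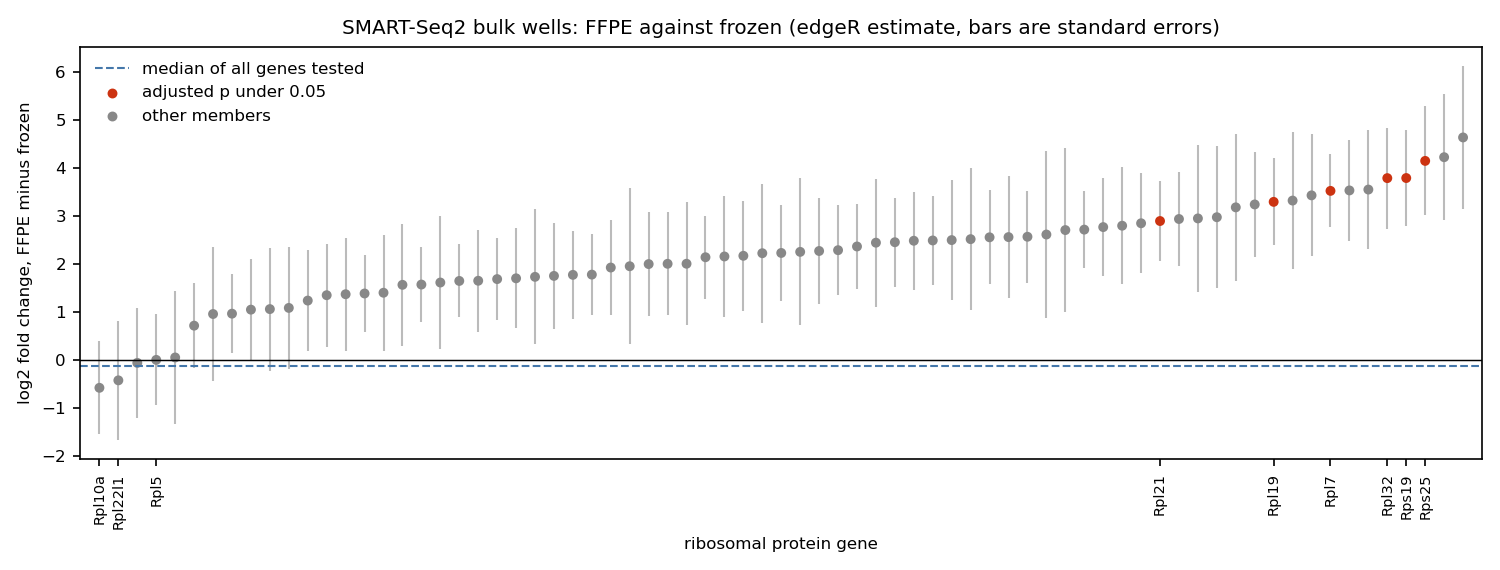
Points give the edgeR log2 fold change of FFPE minus frozen SMART-Seq2 wells for the 73 members tested, in ascending order, with standard errors as bars, the 6 called members in red and the median of all genes tested as a dashed line. The names of the called members and of Rpl5, Rpl10a and Rpl22l1 are printed. Most estimates lie between 1 and 4 with wide errors, and Rpl10a and Rpl22l1 lie lowest.

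Between the 3 ways of removing paraffin, 0 of 73 members were called in any of the 3 SMART-Seq2 contrasts, where 0% of 8372 genes were called (mineral oil against heated xylene), 0% (heated against room-temperature xylene) and 0% (mineral oil against room-temperature xylene). None of the 73 had an unadjusted p under 0.05 in these contrasts, and the DESeq2 Wald test called 0 members among 16, 1 and 20 genes. For Rpl8, the SMART-Seq2 wells of 100, 50 and 10 nuclei had 87.5, 154 and 197 CPM in mineral oil and 96.5, 28.1 and 60.5 CPM in heated xylene. The mineral oil wells were therefore not the low ones for Rpl8 in this assay.

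Other genes of the translation machinery were followed beside the members. Of 49 tested in the SMART-Seq2 contrast of FFPE with frozen wells, 3 were higher in FFPE and 0 lower (edgeR), among them the elongation factor Eef1a1 and the initiation factor Eif1, where 1.45% of all genes were called as higher. DESeq2 called 9 of the 49, against 3.64% of all genes as higher. In edgeR fits without 1 of the 3 frozen wells 0 were called, near the 1.64% to 1.84% of all genes called there. The log2 difference of Eef1a1 was 2.23 to 2.67 in these fits, against 2.41 with all wells. Over the 49 genes the median log2 difference was 0.61. In SCRB-seq 6 were tested, of which Eef1a1 was called higher and Eif3c lower in FFPE, where 58.0% of all genes were called. With DESeq2 or its size factors 0 of the 6 were higher and 3 lower. Of all 1478 genes these fits called 317 and 309 higher and 686 and 674 lower, so 3 of 6 is near the background. With library pools as samples 0 of 51 were called, where 0.752% of all genes were. The log2 difference of Eef1a1 was 1.17 in edgeR and 0.55 with either DESeq2 scaling, where it was not called, nor was it in wells of 100 nuclei alone (0.38). Eef1a1 was also lower in mineral oil than in either xylene group among 2 tested. Of all genes 8.52% were called against heated xylene and 10.3% against room-temperature xylene. Between the xylene groups 0 of 2 differed, where 1.94% of genes were called. In the SMART-Seq2 contrasts between methods edgeR called 0 of 48, where 0% of 8372 genes were called. The DESeq2 Wald test called 1 of the 48, lower in mineral oil than in room-temperature xylene, where it called 0.239% of all genes.

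Among single nuclei on plates, the FFPE batches stood apart. Members took 0.326% of pooled counts in batch 1 (exact Poisson 95% interval 0.324% to 0.329%, which covers counting error only) and 1.70% in batch 2 (1.69% to 1.71%). The median nucleus had 0.279% and 0.236% on the 2 plates of batch 1, MB17 and MB18, and 1.75% and 1.12% on the plates of batch 2, MB14 and MB16. Both plates of batch 2 were above both of batch 1. No test was made, since nuclei are not replicates and each batch is 1 sample. Thinned to 10000 counts, a nucleus was expected to hold 6.50 members in batch 1 (90 nuclei deep enough) and 15.6 in batch 2 (126 nuclei), against 15.1 in frozen nuclei (127 nuclei). Without thinning, the medians were 9.5, 23 and 43 members.

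Pooled levels were higher in batch 2 for 75 of 79 members, and for 63 members both plates of batch 2 were above both of batch 1. Over 17753 genes these shares were 49.6% and 25.6%. The median ratio was 4.94 over the 77 members with counts in both, and 1.00 over all genes with counts in both. Rpl29 had 9.73 CPM in batch 1 and 273 CPM in batch 2 (28.1-fold), and Rpl11 had 15.8 and 368 CPM (23.3-fold). The 4 members that were not higher in batch 2 were Rpl22l1, with 18.6 and 15.5 CPM, Rps25, with 60.4 and 51.8 CPM, Rps3a1, with 39.7 and 38.8 CPM, and Rpl3l, with a single count in both batches together. Ttr, made by the choroid plexus, took 0.00174% of counts in batch 1 and 0.185% in batch 2, and the blood genes Hba-a1 and Hbb-bs summed to 0.00342% and 0.278%. Endothelial markers took 0.0264% in batch 1 and 0.0993% in batch 2, and Malat1 0.661% and 0.292%. The part of these in the levels of members was not tested.

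Single nuclei carried much of some values. In batch 1, 86.0% of the Rps27 counts and 88.2% of the Rpl34 counts were in 1 nucleus, and only 24 of 98 nuclei had a count of Rps14. Rpl22, which binds noncoding RNA outside the ribosome as well, had 394 CPM on plate MB17 and 1.84 CPM on MB18. In batch 2 Rps14 had a count in 75 of 134 nuclei and 1 nucleus held 14.2% of its counts.

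FFPE and frozen plate nuclei had close pooled shares in opposite order to their medians. Members took 1.24% of pooled counts in FFPE nuclei and 1.30% in frozen nuclei, but the median FFPE nucleus had 1.44% and the median frozen nucleus 0.720% (0.830% and 0.628% on the 2 frozen plates). The 143 FFPE nuclei hold the 134 of batch 2 and 9 that are in no batch table. These 9 had 0.900% of their pooled counts on members and a median of 2.11%, and 1 of them held 36.8% of their counts. Without the 9 nuclei the pooled FFPE share was 1.70%, above the frozen one. Markers of other cells differed between the same nuclei. Granule neuron markers took 0.0399% in FFPE and 4.72e-05% in frozen nuclei, Ttr 0.143% and 0.0180%, the blood genes 0.178% and 0.0576%, and excitatory markers 0.0420% and 0.161%. Their part in the levels of members was not tested.

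**Figure D4:**
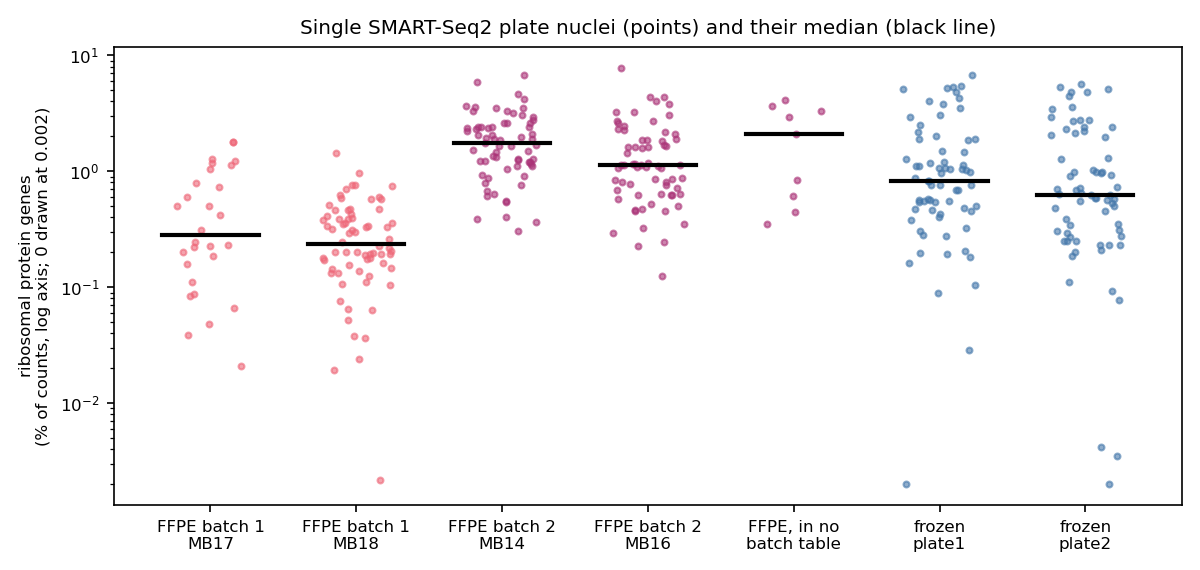
Each point is 1 plate nucleus, with the counts of ribosomal protein genes as a percent of its counts on a logarithmic axis, and black lines mark the median of each plate. The batch 1 medians (0.279% and 0.236%) lie below those of batch 2 (1.75% and 1.12%), with the frozen plates (0.830% and 0.628%) between them.

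Of the 57 members with at least 100 CPM in either arm, 27 were higher in FFPE and 30 in frozen nuclei, with a median log2 ratio of -0.09 against -0.23 over 3394 genes chosen the same way. A fold above 1.5 was met by 14 members upward, where 34.4% of all genes met it, and by 14 downward, where 42.6% of all genes did. Shares of 14 in 57 are below both backgrounds. With the FFPE nuclei of batch 2 alone 36 were higher in FFPE and 21 in frozen nuclei, and as means over nuclei 39 and 18. Both FFPE plates were above both frozen plates for 10 of the 57 members and below both for 8, where 19.1% and 37.2% of the 3394 genes did so. With batch 2 nuclei alone the counts were 18 and 12, against 23.1% and 43.2% of genes.

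Rpl5 had the lowest ratio, with 41.4 CPM in FFPE and 215 CPM in frozen nuclei (ratio 0.193). Its FFPE plates had 80.6 and 29.3 CPM and its frozen plates 191 and 237 CPM, so the plates did not overlap. Rpl26, at the exit of the peptide tunnel, followed with a ratio of 0.294, Rpl31 with 0.305, Rps10 with 0.317 and Rpl14 with 0.331, each with both FFPE plates below both frozen plates. With batch 2 nuclei alone these 5 ratios lay between 0.286 (Rpl31) and 0.595 (Rps10), and as a mean over nuclei that of Rps10 was 1.06.

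Among the 57 members with at least 100 CPM, the 4 highest ratios were those of Rpl34 (4.40), Rps13 (4.06), Rpl15 (3.83) and Rpl9 (3.14), each with both FFPE plates above both frozen plates. With batch 2 nuclei alone Rps13 no longer separated, with 66.9 CPM on plate MB16 against 73.6 CPM on a frozen plate. A single FFPE nucleus held 54.9% of the Rpl34 counts, 71.9% of those of Rps13 and 77.5% of those of Rpl15. With batch 2 nuclei alone the ratios were 2.45 for Rpl34, 1.77 for Rps13 and 1.63 for Rpl15, and that of Rpl9 was larger (5.08). The plates of Rpl9 had 863 and 222 CPM in FFPE and 108 and 129 CPM in frozen nuclei.

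The bulk wells and the plate nuclei did not order FFPE and frozen alike. By pooled CPM, 62 of the 77 shared members were higher in FFPE in SCRB-seq wells, 74 in SMART-Seq2 wells and 35 in plate nuclei. Over the 16321 genes with counts in all 3 designs, 53.0%, 60.9% and 47.6% were higher in FFPE. For 36 members, among them Rps14, Rps26, Rps27, Rpl41, Rpl7, Rpl19 and Rpl32, FFPE was higher in both bulk assays and frozen in the nuclei, a pattern that 16.8% of those genes had. Rps14, for example, had 311 CPM in FFPE and 86.3 CPM in frozen SCRB-seq wells, 145 and 17.2 CPM in SMART-Seq2 wells, and 425 and 886 CPM in plate nuclei. The direction in the nuclei depended on how they were pooled. Of the 36 members, 17 were higher in FFPE with batch 2 nuclei alone and 19 as means over nuclei, and 15 stayed higher in frozen nuclei both ways, among them Rps14, Rps26, Rps27 and Rpl41. The ratios of Rpl7, Rpl19 and Rpl32 turned to 1.34, 1.28 and 1.08 with batch 2 alone, and were 0.980, 1.10 and 1.35 as means over nuclei. Rpl10a was higher in frozen material in all 3 by pooled CPM, but its ratio in nuclei was 1.36 with batch 2 alone and 1.67 as a mean over nuclei. These 3 designs share no wells or nuclei, and the differences between them were not tested.

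The order of members within a sample also differed between the assays. By count, the leading members included Rps14, Rpl41 and Rpl8 in SCRB-seq, Rpl7, Rpl19 and Rps3 in SMART-Seq2 wells, Rpl7, Rps27 and Rpl13a in batch 1, Rps15 and Rps3 in batch 2, and Rps14, Rpl41 and Rps15 in frozen nuclei. Levels per length of the representative transcript (CPM per kilobase) put Rps14 first in FFPE SMART-Seq2 wells (243) and frozen nuclei (1484). Rps27 led in batch 1 (413 CPM per kilobase) and Rpl10a in frozen SMART-Seq2 wells (75). SCRB-seq counts 3′ ends, so its levels are given without length. By CPM, Rps14 led in its FFPE wells (311) and Rpl6 in its frozen wells (192). Spearman's rho over the 77 shared members, a description over genes that share annotation and length, was highest between batch 2 and frozen nuclei (0.725). It ran from 0.0741 to 0.351 between the droplet nuclei and the other tables.

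Small and large subunit genes kept different proportions. The counts on Rps symbols were 0.533 and 0.541 times those on Rpl symbols in the frozen SMART-Seq2 and SCRB-seq wells, and 0.735 and 0.709 times in the FFPE wells. The ratio was 0.681 in batch 1, 0.898 in batch 2 and 0.816 in frozen nuclei.

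In the droplet library members had 11236 of 2605198 UMIs, or 0.431% (exact Poisson 95% interval 0.423% to 0.439%), and 5426 of 7031 nuclei (77.2%) had at least one. No doublet caller was run, and the authors' nuclei were all used. Free RNA can give such UMIs, and the granule neuron markers had UMIs in every class. Its part was not tested. The leading members were Rps15, a protein of the small subunit head with 554 UMIs, Rpl38 (519), Rpl28 (515), Rpl41 (496) and Rps27rt (386). With 1 library there is no test between classes, and the intervals cover counting error only.

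The highest shares were those of 2 glial classes and the vascular class. Microglia had 0.584% (0.499% to 0.678%), Endothelial 0.541% (0.482% to 0.605%) and Oligodendrocyte 0.510% (0.469% to 0.555%). ExNeuron1 had 0.409% (0.396% to 0.423%), ExNeuron4 0.392% (0.370% to 0.415%), Astrocyte 0.443% (0.416% to 0.471%) and OPC 0.432% (0.387% to 0.482%). Fibroblast was lowest at 0.353% (0.275% to 0.446%), from 70 UMIs in 47 nuclei. ExNeuron2 had 0.462% (0.440% to 0.485%) and ExNeuron6 0.485% (0.438% to 0.535%). The intervals of Microglia, Endothelial, Oligodendrocyte, ExNeuron2 and ExNeuron6 lay above the value of all nuclei, and those of ExNeuron1 and ExNeuron4 below it. Depth differed between the classes as well. The median was 285 UMIs in Microglia, 296 in ExNeuron2, 301.5 in Endothelial and 314 in Oligodendrocyte, against 371 in ExNeuron4 and 396 in Fibroblast. It was 353 in ExNeuron6 and 331 in ExNeuron1. The part of depth in the shares was not tested. Marker lists matched the names for microglia (0.249% of UMIs in Microglia, at most 0.0248% elsewhere), endothelial cells (0.0936%, at most 0.0123%) and oligodendrocytes (1.03%, at most 0.243%). They also matched for astrocytes (0.437%, at most 0.210%) and oligodendrocyte precursors (0.0993% in OPC, at most 0.0102%). They did not for the neuron classes. The inhibitory list was highest in ExNeuron6 (0.0775%) and ExNeuron4 (0.0645%), whose names read as excitatory. The excitatory list was at 0.152% in ExNeuron1, 0.147% in Microglia and 0.0827% in ExNeuron4, its lowest class. No list was made for fibroblasts.

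Single members rarely set the classes apart. Of 504 intervals (42 members in 12 classes) 23 left out the level of all nuclei, or 4.56%, which is about the rate at which 95% intervals miss by counting error, so the next values are given as a description. Rpl38, which in the embryo is needed for translating Hox mRNAs, had 199 CPM over all droplet nuclei, 389 CPM in Endothelial (22 UMIs, interval 244 to 589) and 86.1 CPM in ExNeuron6 (7 UMIs, interval 34.6 to 177). Rps15 had 213 CPM over all nuclei and 155 CPM in ExNeuron4 (47 UMIs, interval 114 to 207). Rps27rt had 336 CPM in Endothelial (19 UMIs, interval 202 to 524) against 148 CPM over all nuclei. Rpl28 and Rpl41 had no class whose interval left out the level of all nuclei. The member with the most UMIs was Rpl38 in Astrocyte, Endothelial, ExNeuron3, ExNeuron5 and Microglia, Rps15 in ExNeuron1, ExNeuron2 and OPC, Rpl28 in ExNeuron4 and ExNeuron6, and Rpl41 in Fibroblast and Oligodendrocyte.

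Rps27 was the member with no droplet UMI. It had 0 of the 2605198 droplet UMIs, which allows up to 1.15 CPM (3 counts), whereas frozen plate nuclei had 297 CPM (droplets at least 258-fold lower) and batch 2 had 249 CPM. The Rps27rt row, found in the droplet table alone, had 148 CPM there. As printed above, the coding sequences of the pair do not differ, and all 50-base words in the last 300 bases of Rps27 occur in another gene. Other members with many shared words were low in droplets against frozen plate nuclei: Rpl9 had 3.07 and 119 CPM (100% of the words of its last 300 bases shared), Rps12 3.45 and 78.6 CPM (100%), Rpl10 6.91 and 126 CPM (100%) and Rpl31 8.83 and 411 CPM (87.3%). On the other side, Rpl39 had 112 CPM in droplets and 23.2 in frozen plate nuclei (21.1%), Rps16 131 and 37.7 CPM (13.1%) and Rpl28 198 and 89.1 CPM (0%).

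Over the 77 members, Spearman's rho between the log2 ratio of droplets to frozen plate nuclei and the shared percent was -0.33 for the whole transcript and -0.39 for its last 300 bases. The 15 members with at least 80% of words shared had a median log2 ratio of -2.65, and the 10 with under 20% had -1.02. By the last 300 bases the gap was smaller, with -2.21 over 22 members with at least 80% and -1.56 over 22 members with under 20%. Some members of the latter bin have a long representative transcript, such as Rpl5 (2045 bases) and Rps3 (1908), while Rpl11 (833) is nearer the median of 767.5. The part of the choice of transcript was not tested. Preservation, assay and annotation also differ between these tables, and their part was not tested.

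**Figure D5:**
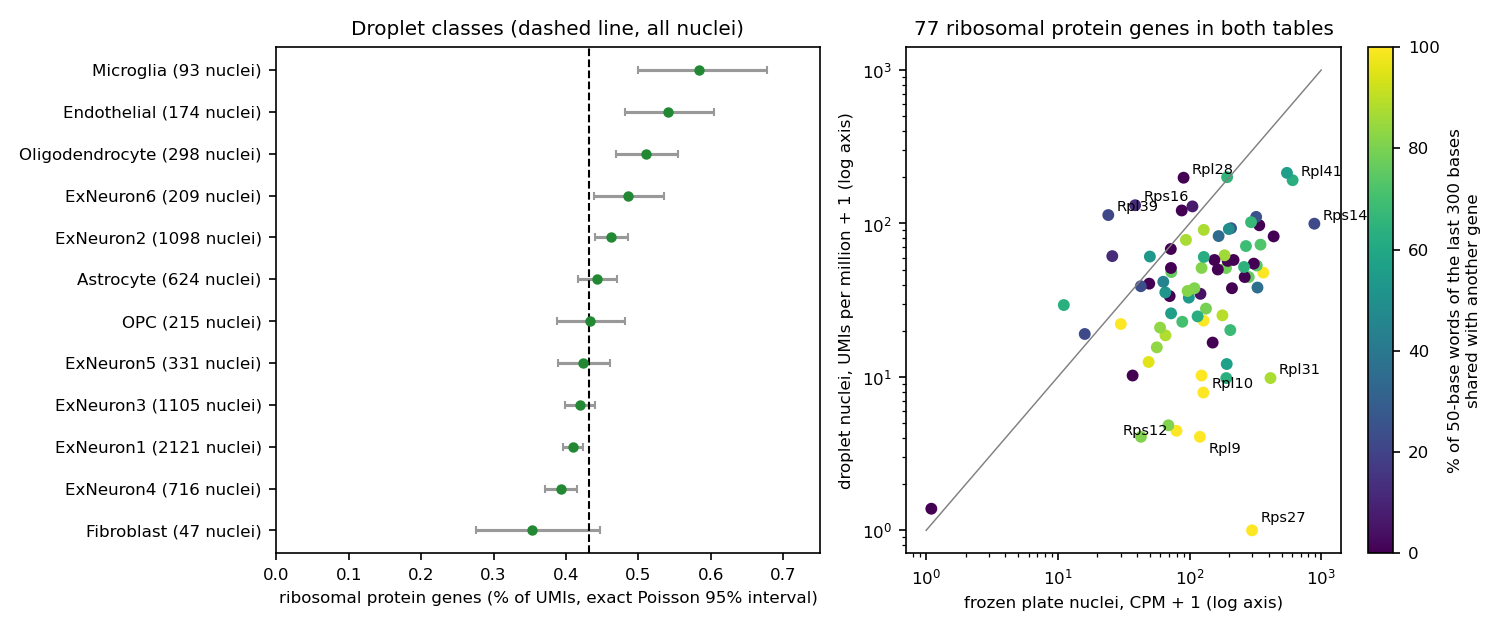
The left panel gives the percent of UMIs on ribosomal protein genes in each droplet class with exact Poisson 95% intervals and all nuclei as a dashed line, and the right panel plots pooled droplet levels against frozen plate nuclei (CPM plus 1, logarithmic axes) for 77 members, coloured by the percent of shared words in the last 300 bases. Microglia, Endothelial and Oligodendrocyte lie above the dashed line, and Rps27, Rpl9, Rps12, Rpl10 and Rpl31 lie far below the diagonal.

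Paralog pairs differed in which gene led. Rpl22 had 70.3 CPM and Rpl22l1 24.4 CPM in FFPE SMART-Seq2 wells, but 25.2 and 29.5 CPM in frozen ones. Rpl36a had 3.57 CPM and Rpl36al 23.3 CPM in batch 1, and 154 and 186 CPM in batch 2. Rps27l, which p53 induces, had 0.230 CPM in batch 1 and 24.2 CPM in batch 2. Rpl39l, a testis paralog of Rpl39, had 0 counts in batch 1 and 370 counts in 3 of 134 nuclei of batch 2, of which 57.0% were in 1 nucleus. Rpl10l, another testis paralog, had 0 counts in the SMART-Seq2 wells and at most 0.297 CPM in a batch of nuclei, beside 245 CPM of Rpl10 in batch 2. The pair Rpl7 and Rpl7l1 had 52.2 and 18.8 CPM in droplets, and Rps19bp1 had 9.21 CPM there. Each of the 82 members had a count in at least one table.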

How the data were processed

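Members and gene lists were chosen with earlier results of these data known. The deposited bulk, plate and droplet tables hold raw counts per gene, or UMI counts in droplets, per the file headers and the authors' totals (6900 of 7031 droplet nuclei sum to theirs), and the authors' annotation gives mitochondrial counts as a fraction. Mitochondrial shares of bulk wells were computed from the counts. The submitters' processing notes name hg19 and mm10, and the droplet gene table names mm10_premrna. The sources used here do not give the aligner or the counting. In SCRB-seq, 10653 human genes were left out. Batch 3 holds no nuclei. The 134 nuclei of batch 2 recur in the table of FFPE and frozen nuclei, and 0 of their values differ.

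Counts were fitted over all genes with edgeR 4.0.16 in R 4.3.3 (quasi-likelihood test, TMM scaling, filterByExpr, Benjamini-Hochberg adjustment, threshold 0.05), without covariates. The FFPE contrast is the mean of the 3 methods minus frozen. DESeq2 1.42.0, its size factors, no filter, nuclei number as a covariate, subsets of wells and left-out wells were alternatives. The fits were tested on simulated data, where in SMART-Seq2 63.3% of genes changed 16-fold and 1.69% of those changed 4-fold were recovered. Nuclei and droplet classes were pooled, with exact Poisson and binomial 95% intervals and no test. Shared words are runs of 50 bases of the representative GENCODE M21 transcript that occur in a transcript of another gene. Log2 ratios and correlations used CPM plus a pseudocount of 1. Named genes are members called in any contrast, the 5 with the most counts in a table, the leading member of each droplet class, the 5 largest folds each way between FFPE and frozen nuclei, paralog pairs, and Rps19bp1. Rpl10a, Rps3a1, Rpl29, Rpl11, Rps12, Rps16, Rpl39, Rpl6 and the genes present in whole pools were named after their values were seen. Depth per sample opens the results. Some genes that these rules take are not reported here. The lists were the translation machinery and markers of brain cell types, the choroid plexus and blood.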

Additional observations from a re-analysis of the deposited data

Results flagged for a closer look

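Of 64 groups of 8 or 9 wells, 14 held a well far from the others. The rule marks about 1 in 20 groups by chance for normally distributed values, a rate not established for low counts with many zeros. All 14 were high wells of SCRB-seq. With 10 nuclei in mineral oil, 1 well had 1175 CPM of Rpl41 (the others 0 to 95.8), 1 had 666 CPM of Rps14 (0 to 95.8), 1 had 728 CPM of Rps26 (0 to 183) and 1 had 62.4 CPM of Rpl3l (0 in the others). With 10 nuclei in heated xylene, 1 well had 1569 CPM of Rpl41 (187 to 367), 1 had 320 CPM of Rps26 (0 to 37.4) and 1 had 82.4 CPM of Rpl3l (0 to 34.5). With 10 nuclei in room-temperature xylene, single wells had 337 CPM of Rpl41 (0 to 62.4), 352 CPM of Rps26 (22.7 to 154), 93.0 CPM of Rps27 (0 to 43.4) and 652 CPM of Rps3 (88.0 to 337). With 100 nuclei, single wells had 218 CPM of Rpl8 in mineral oil (0 to 102), 312 CPM of Rpl8 in heated xylene (0 to 122) and 237 CPM of Rps3 in heated xylene (57.7 to 124). Rpl41 and Rps26 thus had an outlying well in each of the 3 FFPE pools of 10 nuclei.

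Human ribosomal protein symbols had counts in the SCRB-seq table, in data that no comparison used. The 74 symbols had a mean of 0.343% of all counts in the 48 FFPE wells (0.0427% to 2.42%) and 0.0247% in the 16 frozen wells (0.00599% to 0.0991%). All human genes took 11.8% and 2.08% of counts, and the symbols were 1.58% and 0.753% of human counts. Mineral oil wells had the highest mean, 0.676%.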

How the results depend on the processing

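Of the counts of called members and summed shares, 74 of their values under an alternative kept to the value reported, 12 counts were larger, 13 smaller and 11 shares moved. In SCRB-seq without the filter on low counts, 12 members were called between mineral oil and heated xylene, 7 between the xylene groups, 11 between mineral oil and room-temperature xylene and 25 between FFPE and frozen, of 77 each. These are 15.6%, 9.09%, 14.3% and 32.5% of members, where 18.8%, 15.9%, 16.1% and 25.2% of all genes were called. With wells of 100 nuclei alone, 3, 3 and 12 were called for mineral oil against heated xylene, between the xylene groups and for FFPE against frozen, of 27, 27 and 30 tested (11.1%, 11.1% and 40.0%, against 13.1%, 5.99% and 45.9% of all genes). With wells of 10 nuclei alone, 2 of 3 tested were called for mineral oil against either xylene group and 2 of 3 for FFPE against frozen (20.8%, 19.1% and 61.0% of all genes). With nuclei number as a covariate 1 of 7 was called between the xylene groups (5.74% of all genes). With library pools as samples, chosen after seeing the data, 0 were called in both mineral oil contrasts (0% of all genes) and 0 for FFPE against frozen (0.752%). In SMART-Seq2 the DESeq2 Wald test called 25 of 73 for FFPE against frozen (6.93% of all genes), and leaving out 1 well called 0 to 10 (1.64% to 4.58%). The contrasts between methods stayed at 0 when 1 well was left out (at most 0.0865% of all genes). Where a left-out well leaves fewer wells in a group, the spread is pooled over groups. The cause of these changes was not tested.

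The plate shares moved to 0.246% (batch 1), 1.40% (batch 2), 1.44% (FFPE) and 0.720% (frozen) as medians over nuclei. Without the leading member they were 0.304%, 1.57%, 1.17% and 1.22%, and without the 9 nuclei in no batch table the FFPE share was 1.70%. The droplet share was 0.448% as a mean over nuclei and 0.410% without the leading member. Of values for the members called in the bulk wells and for the droplet classes, 99 were kept, 63 lost their call and 4 moved, and none of these reversed. Among plate nuclei the direction of 17 of 36 members turned with batch 2 alone and of 19 as means over nuclei. The labels give the groups no shared replicate numbers, so wells were not paired by animal or replicate. Nuclei number as a covariate, which matches the SMART-Seq2 wells across groups, called 4 members for FFPE against frozen in place of 6.

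Depth limits most members in SCRB-seq, where 10 of 77 passed the filter, and in wells of 10 nuclei, where a single count can set a level.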
